A study of Homo sapiens with 4 samples.

Results

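The genes described here encode the factors that carry RNA polymerase II through a gene and release it at the end. They are 43 genes for pausing, elongation, cleavage and termination factors and for the 2 largest polymerase subunits, taken by name from GENCODE 29, out of 17563 genes with reads over an intron. Reads were found for 42 of the 43. HEXIM1 consists of a single exon and so has no intron to measure. The 42 genes held 767 of the 209592 introns with reads, of which 581 were the most used of a set of overlapping annotated introns. The measurements come from K562 cells, an established human chronic myeloid leukaemia line, in 4 samples. SF3B1 is a spliceosome subunit that contacts the branch point region of introns. Of the samples, 2 carried wild-type SF3B1 (WT) and 2 carried SF3B1 with the K700E substitution (K700E). In both groups expression of the modified allele was induced with doxycycline at 1 µg/ml and cells were harvested on day 4. Which clones were used is not stated in the labels. RNA bound to chromatin, isolated in buffers with 25 µM of the polymerase inhibitor α-amanitin, was cleared of polyadenylated RNA and rRNA and read with PacBio long reads, which asks how far introns are removed while the RNA is still being made.

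RNA polymerase II pauses soon after it starts, held by the factors DSIF and NELF. The kinase P-TEFb, a pair of CDK9 and a cyclin T, releases it, and HEXIM1 keeps that kinase inactive when it is not needed. The released polymerase travels with SPT6, the histone chaperone FACT, the PAF1 complex and the super elongation complex, while CDK12 and CDK13 phosphorylate its tail. At the gene's end, the cleavage and polyadenylation factors cut the RNA and the exonuclease XRN2 degrades the remainder behind the polymerase. Splicing runs alongside this process, and an intron that is still present in chromatin-bound RNA has been transcribed but not yet removed.

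Splicing efficiency below is the percentage of reads covering an intron in which its junction was found. For a gene it is the percentage of read-intron overlaps, so that a long read counts once in every intron it covers. The libraries held between 459726 and 1346809 overlaps, and K700E replicate 1 was the shallowest, with 7717 introns of at least 10 reads against 25166 to 34512 in the others. It also had the lowest efficiency over the most used introns of all genes, 63.8% against 77.9% and 73.0% in WT replicates 1 and 2 and 74.8% in K700E replicate 2. The same order held over the member genes, with 85.2% and 76.4% in WT against 63.4% and 79.1% in K700E. The labels name an epithelial cell type. Of 10 erythroid and K562 markers 5 had reads in every sample (78 to 506 overlaps in all), against 1 of 8 epithelial markers (12 to 33 overlaps) and 0 of 6 lymphoid ones (0 to 41). KLF1 was at 0 in every sample among the erythroid markers, as were KRT5, CLDN4 and GRHL2 among the epithelial ones. Nothing in the labels says that replicates came from separate cultures. The p-values therefore reflect how far these samples lie apart, and part of that may be technical. Molecular identifiers are not mentioned for these PCR-amplified libraries, so intervals cover counting error only.

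Over their most used introns, most of 25 members were spliced in most reads while still on chromatin. No member passed a test between the genotypes. The most used introns were picked by junction reads in these same samples, which favours a high level. Summed over every annotated intron, several members stood far lower, as given below. Over the most used introns, the median efficiency of the 25 members was 87.0% and 81.7% in WT against 76.9% and 82.5% in K700E. Of 27 members with at least 10 overlaps in every sample, 18 had a lower and 9 a higher mean efficiency in K700E. All genes tested were lower in 62.5% of cases. The median difference was -3.53 percentage points over the members and -2.58 over the 4902 genes tested. No member passed a false discovery rate of 0.05 in edgeR's quasi-likelihood test, which called 0% of all genes, and none passed in DESeq2 or limma. ELL2 and SUPT5H had an unadjusted p under 0.05, as had 3.39% of all genes. Both K700E samples lay below both WT samples in 8 members, against 21.3% of all genes tested, and above them in 1, against 10.2%. The 8 were SUPT5H, SUPT6H, SUPT16H, ELL2, TCEA1, CDK12, CPSF2 and PCF11, and the 1 was IWS1. The direction of the members depended on single libraries. Without K700E replicate 1, 12 members were lower and 15 higher, with a median of 1.23 points, while 55.5% of all genes were lower. Without WT replicate 1 the counts were 14 and 13, with 49.7% of all genes lower. Without K700E replicate 2 they were 21 and 6, with 62.6% of all genes lower. Without WT replicate 2 they were 19 and 8, with 71.0% of all genes lower.

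**Figure D1:**
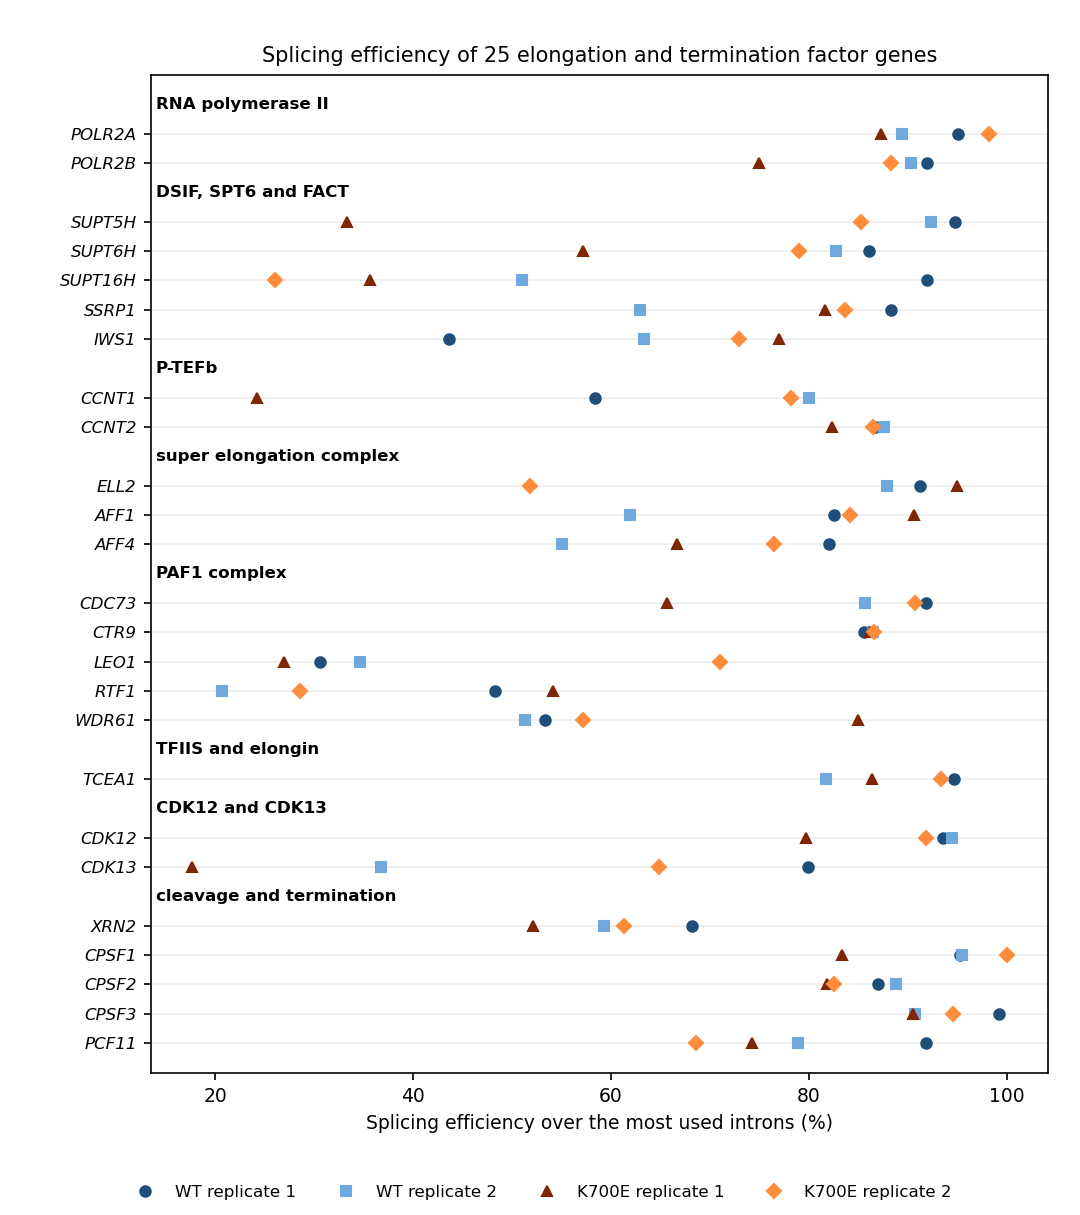
Splicing efficiency (%, horizontal axis) of the 25 member genes with at least 10 overlaps over their most used introns in every sample, 1 row per gene and 1 symbol per sample, grouped by role. K700E replicate 1 (triangles) is the lowest symbol in SUPT5H, SUPT6H, CDC73, CDK12 and CDK13, while CTR9 has all 4 symbols between 85.6 and 86.6%.

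The choice of annotated introns set the level of several genes. Summed over every annotated intron, efficiency in WT was lowest in ELOC (18.4% ± 6.68, SD, n = 2 here and below), WDR61 (28.8% ± 2.98), LEO1 (31.2% ± 2.12), TCEA1 (32.2% ± 4.90) and CDK13 (33.0% ± 17.9). It was highest in POLR2A (92.2% ± 4.05), CDK12 (91.4% ± 1.93), CPSF1 (88.7% ± 5.09), ELL2 (88.0% ± 0.153) and SUPT5H (86.8% ± 1.48). TCEA1, which encodes the elongation factor TFIIS, holds 25 annotated introns with reads, some of which overlap, and over its most used introns it stood at 94.7% and 81.7% in WT against 86.4% and 93.3% in K700E. Its annotated intron 9 of transcript ENST00000640382.1 was spliced in 0 of 93 reads, which allows a share of up to 3.23%. CDK13 includes an annotated gap of 1 nt with 0 junctions in 35 reads. That gap is also counted among its 14 most used introns and lowers its values there. Over the most used introns, 25 members could be set side by side: 15 were lower and 10 higher, where 61.4% of all genes were lower. Both K700E samples lay below both WT samples in 8 of them and above in 3, where all genes gave 20.8% and 9.8%.

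RNA polymerase II itself was represented by its 2 largest subunits. POLR2A encodes the subunit with the repeated carboxy-terminal tail, and its transcripts were among the most completely spliced, at 95.1% and 89.4% in WT against 87.2% and 98.2% in K700E. The K700E samples lay on either side of the WT samples. POLR2B encodes the second largest subunit and had the most overlaps of any member in WT replicate 1, 854, with 565 in WT replicate 2 and 103 and 221 in K700E. Scaled to library size, with the TMM factors of edgeR, its nascent reads, in counts-per-million units (CPM), were 741 and 494 in WT against 213 and 238 in K700E. Both K700E samples lay below both WT samples. The log2 fold change was -1.45 ± 0.52 (standard error) with an unadjusted p of 0.0203. It did not pass over all genes (edgeR adjusted p = 0.871). In these bulk samples, fewer cells of a type and less RNA per cell cannot be told apart.

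The reads over POLR2B were not even along the gene. Between introns 2 and 10 of its 25-intron transcript the libraries held 388 and 246 CPM (of all overlaps, without TMM factors) in WT against 80.5 and 104 in K700E. Between introns 11 and 25 they held 154 and 81.0 in WT against 111 and 93.4 in K700E, where the groups overlapped. This division was chosen after the profile had been seen and is a description. In WT replicate 1 the reads over introns 8, 9 and 10 numbered 85, 91 and 83, and intron 11 had 9. From intron 10 to intron 11 the reads went from 25 to 7 in WT replicate 2, from 3 to 2 in K700E replicate 1 and from 7 to 3 in K700E replicate 2, too few in K700E to show a step. Efficiency over the most used introns of POLR2B was 92.0% and 90.3% in WT against 75.0% and 88.3% in K700E.

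**Figure D2:**
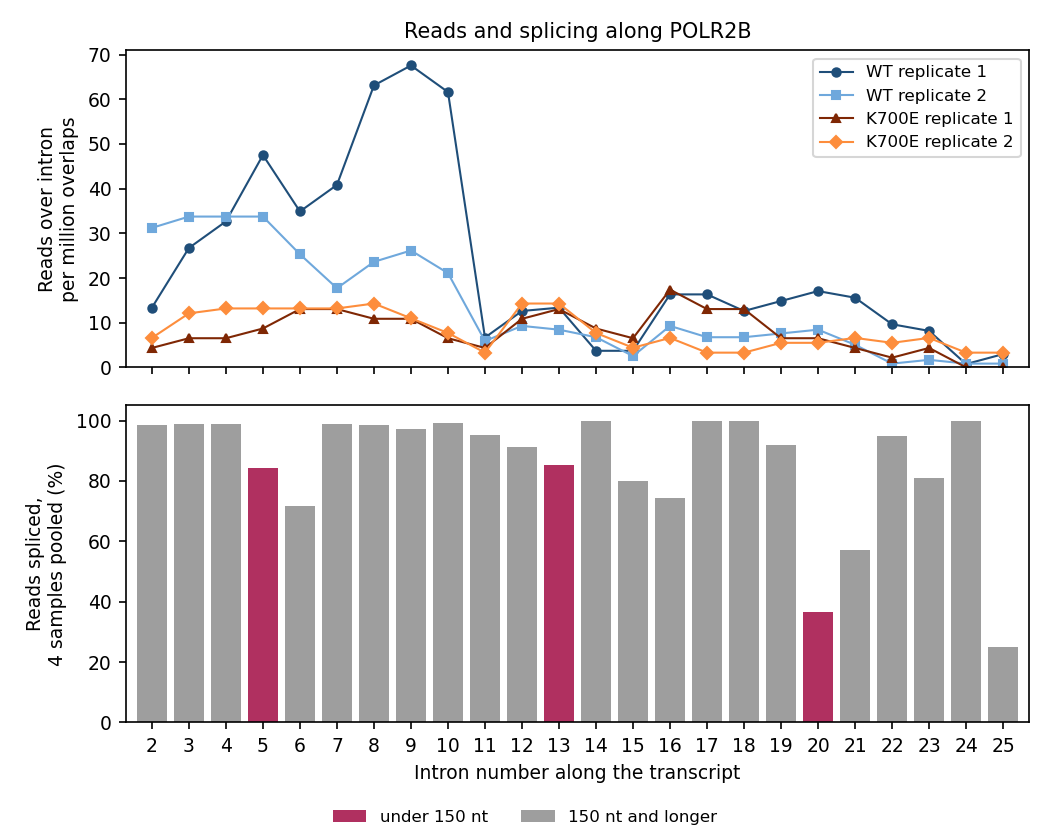
Upper panel: reads over each of 24 introns of POLR2B in order along the transcript (horizontal axis, intron number), in CPM of the library's overlaps, 1 line per sample. The WT lines lie above the K700E lines up to intron 10 and mix with them from intron 11. Lower panel: percentage of reads spliced at the same introns with the 4 samples pooled, short introns in red, where introns 20 and 25 are the lowest.

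Introns of POLR2B also differed from each other within the same libraries. Intron 9 (chr4:57005443-57005599, hg38, plus strand, 157 nt, between coding exon ends) was spliced in 91 of 91 and 29 of 31 reads in WT against 4 of 5 and 9 of 10 in K700E. Intron 20 (chr4:57023581-57023661, 81 nt, between coding exon ends) was spliced in 10 of 23 and 1 of 10 reads in WT against 1 of 3 and 3 of 5 in K700E, or 36.6% of all. Its 95% Wilson intervals were 25.6 to 63.2% and 1.79 to 40.4% in WT against 6.15 to 79.2% and 23.1 to 88.2% in K700E. It lies inside an exon of a retained-intron transcript in GENCODE 29, so its sequence could be read from that transcript. It is shown because it is the POLR2B intron that most often remained among those with at least 20 reads. The first 6 and the last 3 bases of the intron, at the 5′ and 3′ splice sites, are in capitals.
POLR2B intron 20: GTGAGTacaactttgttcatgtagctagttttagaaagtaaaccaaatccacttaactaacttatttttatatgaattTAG
The intron is 27.2% G and C. Of the bases from 20 to 4 before its 3′ end, 64.7% are pyrimidines.

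The DSIF subunit SUPT5H, which travels with the polymerase and helps to hold and release it, had 84 overlaps in K700E replicate 1 but at most 8 reads over any single intron. Over its most used introns efficiency was 94.7% and 92.3% in WT, 33.3% in K700E replicate 1 and 85.3% in K700E replicate 2. K700E replicate 2, with 38 overlaps in all, held fewer reads still. At intron 10 (302 nt) the spliced reads were 5 of 7 and 7 of 12 in WT, 1 of 8 in K700E replicate 1 and 3 of 4 in K700E replicate 2. At intron 12 (1430 nt) they were 10 of 10 and 12 of 12 in WT, 0 of 2 in K700E replicate 1 and 2 of 2 in K700E replicate 2. The gene's difference of -31.9 points did not pass (edgeR adjusted p = 1.00). It shrank to -10.4 points when K700E replicate 1 was left out and grew to -53.4 when K700E replicate 2 was. SUPT4H1, the other DSIF subunit, had 13 and 11 overlaps in WT against 4 and 2 in K700E, too few for a test.

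SUPT16H and SSRP1 form the histone chaperone FACT, which opens and restores nucleosomes around the polymerase, and their values did not follow each other. SUPT16H stood at 91.9% and 51.0% in WT against 35.6% and 26% in K700E over its most used introns. The 2 WT libraries were further apart than WT replicate 2 and either K700E library. At its intron 7 (1739 nt) the spliced reads were 13 of 13 and 6 of 10 in WT against 4 of 6 and 1 of 4 in K700E. At intron 18 (805 nt) they were 2 of 2 and 5 of 7 in WT against 0 of 2 and 2 of 4 in K700E. Over all its introns, the difference of -39.8 points did not pass (edgeR adjusted p = 1.00). It was -17.0 points when WT replicate 1 was left out and -62.6 when WT replicate 2 was. SSRP1 stood at 88.3% and 62.9% in WT against 81.6% and 83.6% in K700E, so that the K700E values lay between the WT values.

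Introns of SSRP1 differed from each other within the same libraries. Intron 4 (285 nt) was spliced in 25 of 27 and 10 of 17 reads in WT against 5 of 6 and 5 of 8 in K700E. Introns 9, 10 and 11 were spliced in every read of every library that covered them, 21, 14 and 17 reads.

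SUPT6H and IWS1 encode partners, SPT6 being a histone chaperone of the elongating polymerase and IWS1 its bound adaptor. SUPT6H stood at 86.0% and 82.7% in WT against 57.1% and 79.0% in K700E over the most used introns, with both K700E samples lower. Its difference over all introns of -19.0 points was -5.97 when K700E replicate 1 was left out and -32.0 when K700E replicate 2 was (edgeR adjusted p = 1.00 with all samples). IWS1 was the only one of the 27 members with both K700E samples above both WT samples over all introns, at 29.9% and 42.9% in WT against 64.5% and 51.8% in K700E. The difference of 21.8 points did not pass (edgeR adjusted p = 1.00). At IWS1 intron 4 (514 nt) spliced reads were 0 of 3 and 4 of 6 in WT against 2 of 2 and 9 of 12 in K700E. At its intron 7 (1043 nt) they were 7 of 8 and 6 of 7 in WT against 7 of 7 and 5 of 5 in K700E.

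NELF, the complex that holds the paused polymerase, was thinly covered. NELFA had 0 to 10 overlaps per library, NELFB 2 to 17 and NELFE 0 to 5, and none of these was tested. NELFCD was tested for nascent reads alone, with 43.4 and 55.9 CPM in WT against 14.5 and 19.4 in K700E. Both K700E samples were lower, with a log2 fold change of -1.54 ± 0.93 (edgeR adjusted p = 0.986). These rest on 50 and 64 overlaps in WT against 7 and 18 in K700E. Intron 5 of NELFCD (chr20:58989022-58989487, plus strand, 466 nt, between coding exon ends) was spliced in 0 of 10 and 2 of 5 reads in WT and in none of the 3 and 1 reads in K700E, while its intron 1 was spliced in all 9 reads. The last 50 bases of intron 5 (chr20:58989438-58989487), read from a retained-intron transcript, are shown with the 3′ splice site in capitals because it was the NELFCD intron most often left in place.
NELFCD intron 5, 3′ end: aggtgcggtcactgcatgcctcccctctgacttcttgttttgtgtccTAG
Of the bases from 20 to 4 before this 3′ end, 82.4% are pyrimidines.

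The kinase P-TEFb was covered best through CCNT2, 1 of its 2 alternative cyclin subunits. CCNT2 had 505 and 323 overlaps in WT against 112 and 278 in K700E, and 5 of the 10 member introns that reached 10 reads in each library. Its first 3 introns were spliced almost completely in each library. Intron 1 (chr2:134919013-134919809, plus strand, 797 nt, between coding exon ends) stood at 52 of 52 and 36 of 37 reads in WT against 15 of 16 and 44 of 45 in K700E. Intron 2 (16949 nt) was spliced in 98.5% ± 2.14 of reads in WT against 96.4% ± 5.05 in K700E. Intron 3 (2032 nt) was spliced in 95.5% ± 1.95 and 96.7% ± 4.71. The differences of -2.88, -2.06 and 1.17 points did not pass (edgeR adjusted p from 0.985 to 0.993).

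Further along CCNT2 the introns varied. Intron 8 (4741 nt) was spliced in 58 of 60 reads of the 4 libraries. Intron 6 (125 nt, or 118 nt from a 5′ splice site 7 nt downstream, which the deposited counts do not tell apart) was spliced in 5 of 55 and 10 of 49 reads in WT against 2 of 17 and 4 of 36 in K700E. The means were 14.8% ± 8.0 and 11.4% ± 0.462 (edgeR adjusted p = 0.992). A longer annotated intron skips the exon before it, with 17 and 6 junction reads in WT against 0 and 4 in K700E, so a read without the junction of intron 6 may be spliced another way. The last intron, number 10 (chr2:134954380-134954480, 101 nt, between coding exon ends), was spliced in 1 of 2 and 1 of 11 reads in WT against 1 of 4 and 1 of 8 in K700E, or 16.0% of all. It lies inside an exon of another protein-coding transcript, and is shown whole, with its first 6 and last 3 bases in capitals. It is the only intron of 60 to 149 nt in this gene's most used set.
CCNT2 intron 10: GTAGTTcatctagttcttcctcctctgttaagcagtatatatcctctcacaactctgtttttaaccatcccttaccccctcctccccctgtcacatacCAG
Its first 6 letters differ from those of intron 20 of POLR2B, and 76.5% of the bases from 20 to 4 before its 3′ end are pyrimidines.

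CCNT1, the other cyclin T, stood at 58.3% and 80.0% in WT against 24.2% and 78.2% in K700E over its most used introns. K700E replicate 1 was far below the other libraries, on 33 overlaps over these introns. The kinase gene CDK9 had 3 to 17 overlaps per library and was tested for reads alone, with 13.9 and 2.62 CPM in WT against 8.26 and 18.3 in K700E (edgeR adjusted p = 0.999).

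The super elongation complex joins the elongation factors of the ELL family to the scaffold proteins AFF1 and AFF4, and it raises the rate of the polymerase. ELL2 illustrates how the set of introns moves a value. Over all annotated introns, both K700E samples (70.4% and 50%) lay below both WT samples (88.1% and 87.9%). Over the most used introns they lay on either side, at 95% and 51.9% against 91.2% and 87.9%. Intron 1 of ELL2 (18525 nt) was spliced in all 23 reads of the 4 libraries. Its last intron, number 11 (98 nt), was spliced in 14 of 16 and 7 of 10 reads in WT against 2 of 2 and 1 of 5 in K700E. The difference over all introns, -27.8 points, did not pass (edgeR adjusted p = 1.00) and was -16.1 over the most used ones. Without K700E replicate 2 it was -17.6 points over all introns.

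AFF4 had 577 and 274 overlaps in WT against 81 and 233 in K700E. Its intron 15 (chr5:132887983-132888096, minus strand, 114 nt, between coding exon ends) was spliced in 39 of 57 and 17 of 21 reads in WT against 11 of 12 and 13 of 16 in K700E. The difference of 11.8 points (74.7% ± 8.86 against 86.5% ± 7.37) did not pass (edgeR adjusted p = 0.985). It was 5.51 points without WT replicate 1, 6.56 without K700E replicate 1 and 18.0 without WT replicate 2. At intron 9 (711 nt) the spliced reads were 21 of 22 and 3 of 12 in WT against 0 of 1 and 14 of 18 in K700E. Over the most used introns of AFF4, WT replicate 2 and K700E replicate 1 were the low libraries, at 55.1% and 66.7%, and WT replicate 1 and K700E replicate 2 stood at 82.0% and 76.5%. The AFF1 values over most used introns were 82.5% and 61.9% in WT against 90.6% and 84.1% in K700E, with both K700E samples above, but over all introns the groups overlapped (71.6% and 56.9% against 78.0% and 71.1%). ELL was tested for reads alone, at 4.34 to 20.1 CPM, while ELL3, MLLT1 and MLLT3 had 0 to 18 overlaps per library.

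The PAF1 complex rides on elongating polymerase and supports histone modification behind it. CTR9, its scaffold, varied least between libraries of the 25 members, with 85.6% and 86.5% in WT against 86.2% and 86.6% in K700E over the most used introns. CDC73 stood at 91.9% and 85.7% in WT against 65.6% and 90.7% in K700E, with K700E replicate 1 apart, on 32 overlaps over these introns. LEO1 was low in 3 libraries, 30.6% and 34.6% in WT and 26.9% in K700E replicate 1, and stood at 71.1% in K700E replicate 2. Its difference over all introns of 16.8 points turned to -4.31 without K700E replicate 2 (edgeR adjusted p = 1.00 with all samples and from 0.866 to 1.00 over the alternatives). RTF1 ranged from 20.7 to 54.2% with overlapping groups. WDR61 stood at 53.3% and 51.4% in WT against 85.0% and 57.1% in K700E. PAF1 had 0 overlaps in WT replicate 2 and 2 in K700E replicate 1, and was tested for reads alone.

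TFIIS and elongin relieve arrested or slowed polymerase. TCEA1 is described above. For ELOA, the large elongin subunit, reads over single introns never exceeded 7, and its CPM ran from 2.06 in K700E replicate 1 to 41.0 in K700E replicate 2. ELOC, which also serves ubiquitin ligases, had 17 to 26 overlaps per library at 12 to 23.1% over all annotated introns. Its 4 most used introns gave 55.6% and 33.3% in WT against 33.3% and 25% in K700E, on 6 to 9 overlaps per library. ELOB had 0 to 15 overlaps and was not tested.

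CDK12 and CDK13, with cyclin K, phosphorylate the polymerase tail during elongation, and the 2 kinase genes differed in how steadily they were spliced. CDK12 stood at 93.5% and 94.5% in WT against 79.7% and 91.9% in K700E over the most used introns. Its introns 8, 9 and 10 (4100, 1631 and 2399 nt) were spliced in every one of 51, 45 and 40 reads. Intron 6 (8265 nt) was spliced in 22 of 23 and 16 of 16 reads in WT against 7 of 9 and 16 of 16 in K700E. The difference of -8.70 points over all introns was -2.96 when K700E replicate 1 was left out and -14.4 when K700E replicate 2 was (edgeR adjusted p = 1.00 with all samples). CDK13 ranged widely, with 79.9% and 36.8% in WT against 17.6% and 64.8% in K700E. These values include the annotated gap described above, which lowers all of them. At its intron 6 (chr7:40046026-40047820, plus strand, 1795 nt, between coding exon ends) the spliced reads were 31 of 33 and 7 of 10 in WT against 5 of 10 and 10 of 12 in K700E. This was the member intron with the smallest p, with a difference of -15.3 points (edgeR adjusted p = 0.985). Without K700E replicate 1 it was 1.36 points, and without WT replicate 1 it was -3.33.

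Cyclin K itself, CCNK, held 51 and 34 overlaps in WT against 2 and 26 in K700E. Its intron 5 (chr14:99500872-99501355, plus strand, 484 nt, between coding exon ends) was spliced in 2 of 11 and 1 of 6 reads in WT against 1 of 4 in K700E replicate 2, with no read in K700E replicate 1. Introns 3 and 4 upstream of it were spliced in all 5 reads each. Downstream, intron 6 was spliced in 8 of 10 reads and intron 7 in 10 of 18. The last 50 bases of intron 5 (chr14:99501306-99501355) were read from a retained-intron transcript and are shown as those of the CCNK intron most often left in place, with the 3′ splice site in capitals.
CCNK intron 5, 3′ end: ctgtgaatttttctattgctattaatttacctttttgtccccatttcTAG
With 88.2% pyrimidines from 20 to 4 bases before its 3′ end, it had the highest such share of the introns shown, and 19.0% of its reads were spliced.

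Among the cleavage and termination factors, CPSF3 had the most overlaps over the 4 libraries together. It is the endonuclease that cuts the RNA at the polyadenylation site, with 138 and 258 overlaps in WT against 86 and 259 in K700E. Its well-covered introns 5 and 6 were spliced nearly completely, intron 5 in all 70 reads and intron 6 (2250 nt) in 14 of 14 and 18 of 18 reads in WT against 9 of 10 and 19 of 19 in K700E (edgeR adjusted p = 0.985). CPSF2, its non-catalytic partner, stood at 87.0% and 88.8% in WT against 81.8% and 82.5% in K700E over the most used introns. Both K700E samples were lower by a few points, and over all introns the difference of -5.68 points did not pass (edgeR adjusted p = 1.00). PCF11, which binds the polymerase tail and helps dismantle the elongation complex, stood at 91.8% and 78.9% in WT against 74.3% and 68.6% in K700E, also with both K700E samples lower. Its difference over all introns was -12.7 points (edgeR adjusted p = 1.00), and -7.86 without WT replicate 1. CPSF1 stood at 95.2% and 95.5% in WT against 83.3% and 100% in K700E, on 12 overlaps in K700E replicate 1. The cleavage stimulation factor genes CSTF1 and CSTF2 had 12 to 62 and 1 to 24 overlaps per library.

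XRN2, the exonuclease that chases the polymerase after cleavage, was spliced to a lower share than CPSF1, CPSF2, CPSF3 and PCF11 in each library, at 68.1% and 59.3% in WT against 52.1% and 61.3% in K700E. In every library its short introns were less often spliced than its long ones. The 8 XRN2 introns under 150 nt were spliced in 56.6% and 36.0% of overlaps in WT against 42.5% and 56.2% in K700E. In the 15 introns of 1000 nt and more the shares were 95.2% and 88.9% in WT against 66.7% and 65.9% in K700E. Both K700E samples were lower in the long introns, while the groups overlapped in the short ones, and neither was tested. The 3 XRN2 introns with the most reads were neighbours, all short, and each spliced in under 50% of reads. Intron 10 (chr20:21333619-21333703, 85 nt) was spliced in 4 of 8 and 4 of 10 reads in WT against 2 of 5 and 3 of 8 in K700E. Intron 11 (chr20:21333838-21333936, 99 nt) was spliced in 6 of 10 and 5 of 16 reads in WT against 3 of 8 and 4 of 8 in K700E. For intron 12 (chr20:21333995-21334077, 83 nt) it was 4 of 12 and 5 of 16 in WT against 2 of 8 and 3 of 8 in K700E, with Wilson intervals of 13.8 to 60.9% and 14.2 to 55.6% in WT against 7.15 to 59.1% and 13.7 to 69.4% in K700E. The 3 lie on the plus strand between coding exon ends, and their values overlapped between the genotypes. The annotated exon ends that splicing joins are printed here, 15 bases from each side, with the downstream exon in capitals. How exactly a read had to match them to be counted as spliced is not stated.
XRN2 junction across intron 10: aatgttcttcgtgagTATTTGGAAAGAGAA
XRN2 junction across intron 11: atcgttagagattagGGAAAATGCAATTGA
XRN2 junction across intron 12: gtacacaaaactgggGGTTACCTTACAGAA
The longer introns next to them were spliced almost fully: intron 13 (4858 nt) in 11 of 12, intron 14 (1632 nt) in 19 of 20 and intron 15 (3237 nt) in 27 of 28 reads. Length did not order every intron, since intron 22 (408 nt) was spliced in 6 of 26 reads and intron 23 (1070 nt) in 4 of 15.

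**Figure D3:**
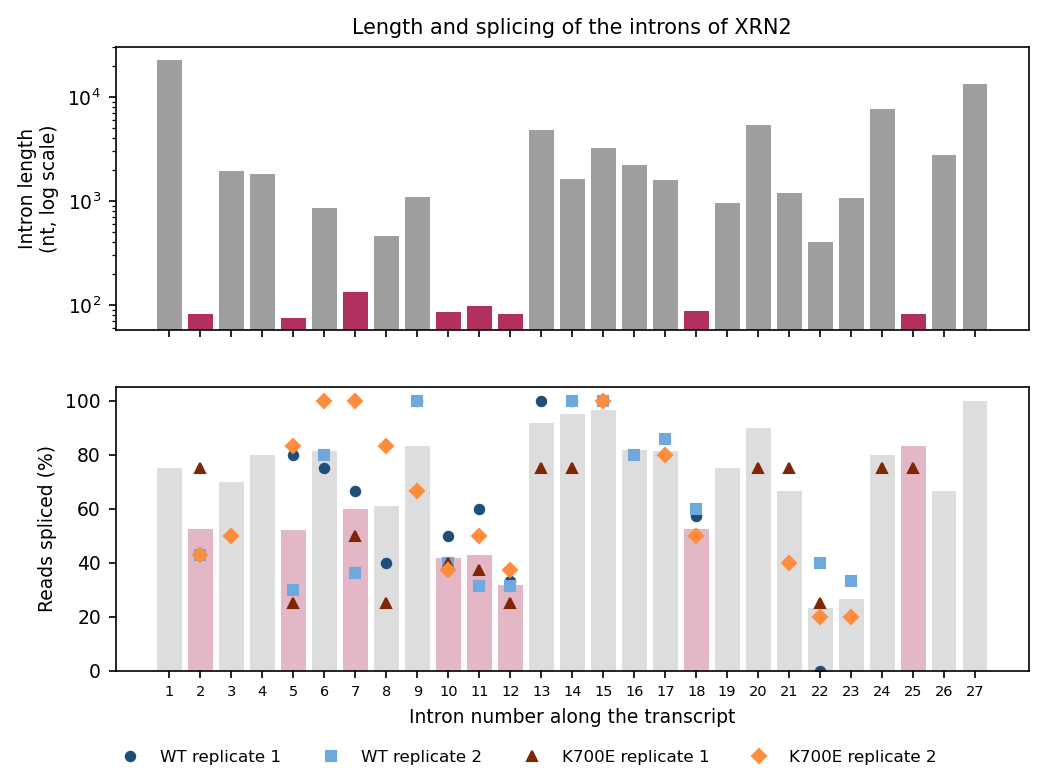
Upper panel: length of each XRN2 intron (nt, log scale) in order along the transcript (horizontal axis, intron number), those under 150 nt in red. Lower panel: percentage of reads spliced, bars for the 4 samples pooled and symbols for samples with at least 4 reads over the intron; introns 10 to 12 sit between 31.8 and 42.9% pooled, and introns 13 to 15 above 90%.

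Short and long introns could be compared in 14 members, those with at least 20 reads in both classes. There, short introns (under 150 nt) were less often spliced than long ones (1000 nt and more) in 13 of the 14. This was not particular to them, as it held in 86.3% of 1678 other genes. CCNT2 had the widest gap, 16.0% against 88.1%, on a single short intron. XRN2 stood at 46.8% and 79.9%, SUPT6H at 75.5% and 86.3% and POLR2A at 94.5% and 100%. AFF4 was the exception, 75.5% against 75.0%. By position, first introns of members stood at 75.3 to 93.9% across the 4 libraries and last introns at 50.9 to 78.9%. Over all genes, first introns stood at 54.4 to 68.0% and last introns at 31.1 to 53.4%.

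**Figure D4:**
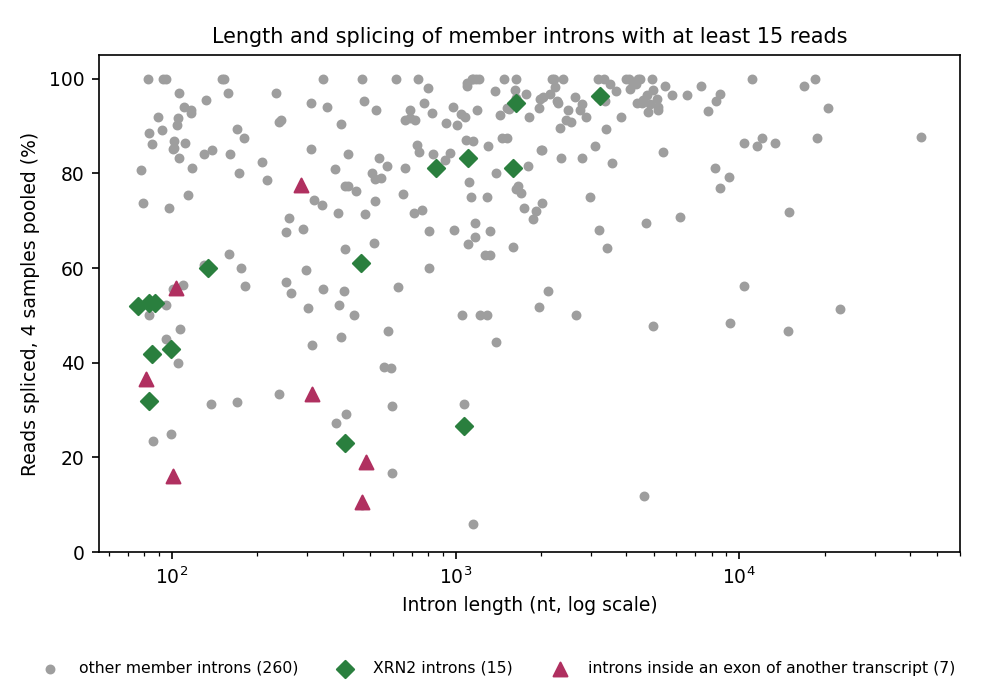
Percentage of reads spliced with the 4 samples pooled (vertical axis) against intron length (nt, log scale) for 282 most used member introns with at least 15 reads and at least 60 nt. The 15 XRN2 introns (green diamonds) include short ones at 31.8 to 42.9% and long ones above 90%, and the 7 introns inside an exon of another transcript (red triangles) lie between 10.5 and 77.6%.

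Some member introns that another annotated transcript keeps as part of an exon were often left in place in nascent RNA as well. Among member introns with at least 15 reads, 7 were of this kind, in SSRP1 (2), SUPT16H, CCNK, CCNT2, NELFCD and POLR2B. They had a median efficiency of 33.3% over the pooled samples (10.5 to 77.6%), against 85.0% for the 275 other introns (5.88 to 100%). These sets were not matched for length, and the same comparison was not made over all genes. Pooled by library, the 7 stood at 56.5% and 31.6% in WT against 42.9% and 45.7% in K700E, with overlapping groups. Chromatin-bound RNA that retains an intron for good and RNA that has not yet been spliced are counted alike in these values.

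At single introns no member passed the test. Of the 10 member introns that reached 10 reads in each library, 8 could be tested, and the other 2 were spliced in every read or in none. None passed in edgeR's quasi-likelihood test, DESeq2 or limma, and none had an unadjusted p under 0.05 in edgeR, against 3.06% of all introns. Over all 5093 introns tested edgeR called 0.0982%. Both K700E samples lay above both WT samples at 1 of the 8, AFF4 intron 15, against 9.19% of all introns, and below at 0, against 19.9%. Efficiency was lower in K700E at 6 of the 10, higher at 2 and equal at 2, the 2 forms of CCNT2 intron 6 counting separately, with a median difference of -2.47 points, against -0.263 over 6141 introns. The member median rested on few introns: it was -0.63 over 85 introns at a minimum of 5 reads and -1.04 without WT replicate 1. Without K700E replicate 1 it was 0, over the 45 introns that then reached the read minimum. SF3B1 mutations are known for the use of other 3′ splice sites, but no 5′ splice site of a member had enough junction reads for that test, which covered 101 sites and called 0% of them, with an unadjusted p under 0.05 in 3.96%. At the CCNT2 5′ splice site of intron 5, 27 of 33 junction reads led to the most used 3′ splice site (17 and 6 in WT, 0 and 4 in K700E). Another site had 4 reads (2 and 1 in WT, 0 and 1 in K700E), and the last had 2, both in K700E replicate 2. At an AFF4 site 21 of 30 led to the most used (11 and 4 in WT, 1 and 5 in K700E) and 9 to the other (7 and 1 in WT, 0 and 1 in K700E).

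Nascent reads over member genes showed no shared direction. Of 34 members with a mean of at least 10 overlaps, 15 were lower and 19 higher in K700E, and 50.9% of all 7915 genes tested were lower. The median log2 fold change was 0.08 over the members and -0.02 over all genes. None passed in edgeR's quasi-likelihood test, which called 0% of genes, or in DESeq2. POLR2B alone had an unadjusted p under 0.05, as had 5.13% of all genes. Both K700E samples lay below both WT samples in 7 members, against 17.1% of all genes, and above in 4, against 17%.

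Those lower in both K700E samples were POLR2A, POLR2B, SSRP1, NELFCD, CTR9, CCNK and CPSF1. SSRP1 stood at 186 and 125 CPM in WT against 82.6 and 71.1 in K700E, a log2 fold change of -1.02 ± 0.62 (edgeR adjusted p = 0.986). POLR2A stood at 177 and 140 CPM in WT against 97.0 and 121 in K700E, a log2 fold change of -0.54 ± 0.59 (edgeR adjusted p = 0.989) that was -0.34 without WT replicate 1. CPSF1 stood at 40.8 and 79.5 CPM against 24.8 in both K700E samples, and CTR9 at 178 and 147 against 130 and 75.5. CCNK had 44.3 and 29.7 CPM in WT against 4.13 and 28 in K700E, and its log2 fold change of -1.15 was -0.40 when K700E replicate 1 was left out and -3.11 when K700E replicate 2 was. Those higher in both were SUPT6H, AFF1, RTF1 and ELOC, with SUPT6H at 193 and 143 CPM in WT against 213 and 244 in K700E.

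Single libraries set several of the other read values. CDC73 stood at 187, 169 and 130 CPM in 3 libraries and 519 in K700E replicate 2, and its log2 fold change of 0.87 turned to -0.44 without that library (edgeR adjusted p = 0.986 with all samples and from 0.798 to 1.00 over the alternatives). AFF4 stood at 501 CPM in WT replicate 1 and 167 to 251 in the others, and -0.82 became -0.18 without it. TCEA1 ran from 111 CPM in K700E replicate 2 to 436 in WT replicate 1, with a log2 fold change of -0.77 that was -0.24 without WT replicate 1 and -0.23 without K700E replicate 2. CDK12 was level, at 134 to 149 CPM in all 4 libraries.

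**Figure D5:**
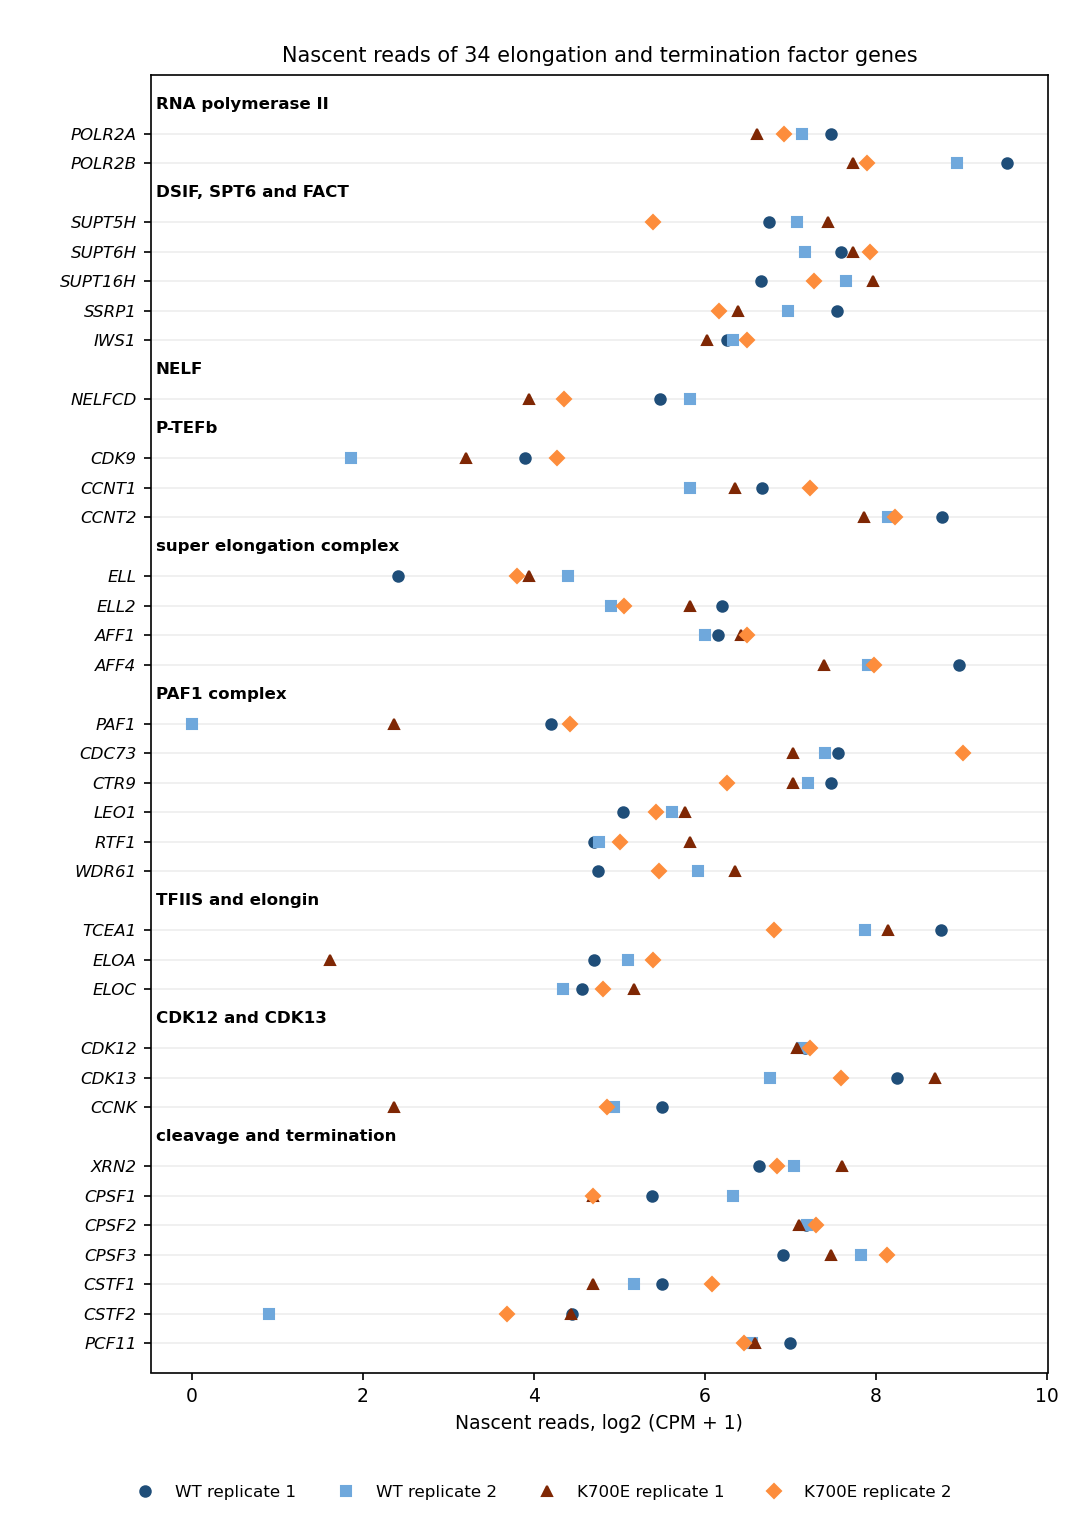
Nascent reads of 34 member genes as log2 (CPM + 1) (horizontal axis), 1 row per gene and 1 symbol per sample, grouped by role. POLR2B has the highest WT symbols (741 and 494 CPM) well to the right of its K700E symbols (213 and 238 CPM), while CDK12 and CPSF2 have all 4 symbols close together.

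Other genes of the same pathway also gave no call. Of 65 further genes for polymerase subunits, elongation, cleavage and the Integrator complex, 41 could be tested for efficiency. Of these, 29 were lower and 12 higher, with a median difference of -2.72 points, where 62.5% of all genes were lower. None passed in edgeR's test. Both K700E samples lay below both WT samples in 6 of the 41 (all genes, 21.3%), against 8 of the 27 members. They lay above in 2 (all genes, 10.2%). INTS8 is a subunit of Integrator, which cleaves the RNA of paused polymerase. Over all annotated introns it had the smallest p, at 68.7% and 71.0% in WT against 53.9% and 53.0% in K700E (edgeR adjusted p = 1.00). On the same basis INTS6 stood at 45.3% and 50.9% against 31.0% and 31.1%, and INTS13 at 63.5% and 44.7% against 80.0% and 65.0%. Levels were higher over the most used introns. There INTS8 stood at 84.8% and 87.1% in WT against 71.1% and 69.8% in K700E. INTS6 stood at 90.8% and 90.0% against 52.9% and 64.9%, and INTS13 at 83.0% and 61.3% against 92.3% and 86.9%. For nascent reads 25 of 51 were lower and 26 higher, again with none called. EAF2, a partner of the ELL factors, stood at 12.1 and 28.8 CPM in WT against 33.0 and 161 in K700E, a log2 fold change of 2.25 ± 0.96 (edgeR adjusted p = 0.959). RPAP2, a phosphatase of the polymerase tail, stood at 23.4 and 42.0 CPM against 78.4 and 101, and INTS7 at 404 and 512 against 793 and 853. In all 3 both K700E samples were above both WT samples, as in 8 of the 51 genes (all genes, 17%), while 3 of the 51 had both below (all genes, 17.1%).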

How the data were processed

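Nascent RNA was measured in 2 WT and 2 K700E samples of K562 cells. The authors deposited, per sample, read counts for each annotated intron (reads over it, and reads with its junction) and their ratio. Per the submitters' processing notes, cutadapt, minimap2 and the build hg38 were used; tool versions and the rule for assigning reads to introns are not stated there or in the labels. The K700E files are numbered 2 and 3 inside, and the titles' 1 and 2 are used here. Tables of RNA 3′ ends carry no gene identifiers and were not used here. Rows were placed on GENCODE 29 by transcript, number, start and strand (87.3 to 87.6% of rows), identical introns were counted once, and ratios above 1 (2.23 to 4.15% of rows) were set to 1.

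Spliced and unspliced counts were tested as paired columns with edgeR 4.0.16 in R 4.3.3 (quasi-likelihood F test, Benjamini-Hochberg over all features tested), for introns with at least 10 reads and genes with at least 10 overlaps in every sample. The negative binomial dispersion was held at 0 for introns and 3′ splice site choice and estimated for genes. Nascent reads were overlaps summed per gene, scaled by TMM, with a mean of at least 10. 3′ splice sites under 12 nt apart were merged. The most used introns were picked by junction reads over all samples, none overlapping. Alternatives used DESeq2 1.42.0, limma 3.58.1, other read minimums, other intron sets, a replicate block and each library left out; the direction counts without a library were added after seeing the data. Tables and plots were made with Python 3.11.15.

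The members and all lists were chosen with earlier results of these data known. Named introns were up to 12 with the smallest p, and named genes the 10 with the smallest p in each test and the 5 lowest and highest WT efficiencies. Introns and genes described beyond these, and the POLR2B division, were chosen after their values were seen. Wilson intervals are at 95% confidence, and a count of 0 was given the limit of 3 counts. Sequences were read from GENCODE 29 transcripts (GRCh38), for introns only where an exon of another transcript spans them. One intron is not reported here.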

Additional observations from a re-analysis of the deposited data

How the results depend on the processing

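No member was called under any alternative run. The 10 genes named for reads, 10 for efficiency and 7 introns were each fitted again under the alternatives. Of these repeated fits, 86 for reads, 104 for gene efficiency and 77 for introns kept their direction on the log2 scale. They also kept their side of the threshold. The direction reversed in 1 fit for reads, 2 for gene efficiency and 4 for introns. Those that reversed did so with 1 library left out. In log2 odds ratios these were CCNT2 intron 3 (-0.57 without K700E replicate 2, range to 3.78), CCNT2 intron 6 (0.37 without WT replicate 2, range from -0.97), CCNT2 intron 2 (2.23 without K700E replicate 1 and 0.46 without WT replicate 1, range from -3.20), CDK13 (0.0050 without K700E replicate 1, range from -2.30) and LEO1 (-0.30 without K700E replicate 2, range to 2.29). In log2 fold change it was CDC73 reads (-0.44 without K700E replicate 2, range to 1.54). The difference of the mean percentages also turned for CDK13 intron 6 (1.36 points without K700E replicate 1), CDK13 (0.66 without WT replicate 1) and CCNT2 intron 3 (-0.21 without WT replicate 1).

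Over all features, the 5 introns called became 0 with DESeq2, 0 with limma and 2 with an estimated dispersion, and 0 to 12 with 1 library left out. The 0 genes called for efficiency became 1 with DESeq2 and 1 over the most used introns. The 0 called for reads became 14 with DESeq2, 30 with no filter and 0 to 1 with 1 library left out. For 3′ splice site choice 0 became 1 at 20 junction reads. The causes were not tested.

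Same-numbered samples share only a number (correlations of their deviations -0.167 for introns, -0.0606 for genes and -0.0809 for reads). The replicate block gave 3 introns, 0 genes for efficiency and 1 gene for reads, and the crossed pairing, added after seeing the data, 5 introns. No member intron had 20 reads in every sample, so that setting gave no member median. The median over 10 member introns was -2.47 points. With 1 library left out it lay between -2.16 and 0, over 10 to 45 introns. The read minimum was applied again there, so the set of introns changed as well. At a minimum of 5 reads, over 85 introns, it was -0.63. Most members had under 10 reads over any single intron in K700E replicate 1, which limits all member values there.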
